A study of Mus musculus with 6 samples.

Results

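The genes described here handle zinc and iron in the cell, and there are 10 of them among 19937 genes tested: the metallothionein genes Mt1 and Mt2, the zinc-sensing regulator gene Mtf1, the zinc transporter genes Slc30a1 and Slc39a10, the ferritin heavy chain gene Fth1, the transferrin receptor gene Tfrc, the iron regulatory protein genes Aco1 and Ireb2, and the divalent metal transporter gene Slc11a2. They were chosen by name as metal handling genes, with their differences in this same comparison already known, and each gene's probe set was selected on the highest mean over the 6 arrays. All 10 were measured, each by 1 probe set that carries its symbol alone. What follows for these 10 genes is therefore a description, in which "rose" and "fell" mark genes that limma called across the whole table, and the calls are not independent support for any pattern. The cells were #483, a single T-ALL clone (acute lymphoblastic leukaemia of T cells) of the mouse strain C57BL6, so they stand for 1 leukaemia. Cultures received 100 µM of 4EGI-1, which keeps the cap-binding protein eIF4E from joining eIF4G, for 2 h (3 samples), or were controls titled untreated (3 samples), although the protocol and design name DMSO in their place, so whether they received the solvent is not settled. RNA was taken from the pooled polysome fractions of a sucrose gradient, that is, from mRNA carrying several ribosomes, and each sample was hybridised to 1 array. The comparison asks how abundant each mRNA was among polysomal mRNAs with and without 4EGI-1. A change in the total of polysomal RNA would not be seen, as the arrays were equalised. RNA of the whole cell was not analysed here, so a change in the amount of an mRNA and a change in its ribosome loading cannot be told apart.

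Zinc and iron are needed by many enzymes and are harmful in excess, so cells hold them within narrow limits. Free zinc is bound by metallothioneins, small cysteine-rich proteins; when zinc rises, the transcription factor MTF1 binds metal response elements in DNA and switches on the metallothionein genes and Slc30a1, whose product ZnT1 moves zinc out of the cytosol, while proteins of the Slc39a family bring zinc in. Iron enters on transferrin through the transferrin receptor and is stored in ferritin; when iron is scarce, the iron regulatory proteins bind hairpins called iron-responsive elements, which blocks translation of ferritin mRNA at its start and protects the mRNA of the transferrin receptor from decay. Dividing lymphoid cells, leukaemic ones among them, carry high levels of transferrin receptor.

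Values are log2 signals made with RMA, which equalises the arrays, so each value is relative to its array and levels of different genes are not compared. Array medians lay between 6.38 and 6.43, and precision is limited by having 3 arrays in a group. The label T-cell leukaemia was checked against markers: of 13 T-cell genes 12 had a probe set of their own, at mean log2 signals of 6.60 to 12.47. Among them Cd3e had a mean of 12.18 in untreated cells, but Cd7 and Cd5 had 6.76 and 6.90, within the range of the erythroid markers. Of 5 B-cell markers 4 were measured, at means of 4.33 to 6.73, and 3 of 6 erythroid markers, at 6.06 to 7.13. All 4 stromal and endothelial markers were measured, at 5.74 to 8.995. The highest of them was Pecam1, with 8.995 in untreated cells and 8.87 with 4EGI-1, within the range of the T-cell genes. Of these 3 lists 0 genes were called. Of 12 measured T-cell markers 6 fell and 0 rose, and their summed signal was 14.71 to 14.74 on the log2 scale in the untreated samples and 14.46 to 14.48 with 4EGI-1. Of 6 myeloid markers, measured at means of 4.92 to 6.83, the genes Adgre1 and Cd68 rose and 0 fell, and the summed signal went from between 8.61 and 8.65 to between 8.70 and 8.76. The part of these shifts in the results was not tested, and in such bulk samples fewer cells of a type and less RNA per cell cannot be told apart.

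After 4EGI-1, Mt2 and Slc30a1 rose the most of the 10 genes, Tfrc and Aco1 rose, and Fth1 and Ireb2 fell. Mt1, Mtf1, Slc39a10 and Slc11a2 did not pass. Of the 10 genes, 4 rose, against 11.5% of all genes, 2 fell, against 11.5% of all genes, and 6 were called in either direction, against 22.9% of all genes, at an adjusted p under 0.05 in limma. In 7 of the 10 every treated value lay on the same side of all untreated values, against 37.9% of all genes; the gene of these 7 that was not called was Slc11a2. The median log2 difference (4EGI-1 minus untreated) was 0.09 over the 10 genes and -0.03 over all genes. Since the same comparison was known when the genes were chosen, nothing is read from these shares. The 6 calls were made under all 16 alternative settings, which include leaving out each array in turn.

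**Figure D1:**
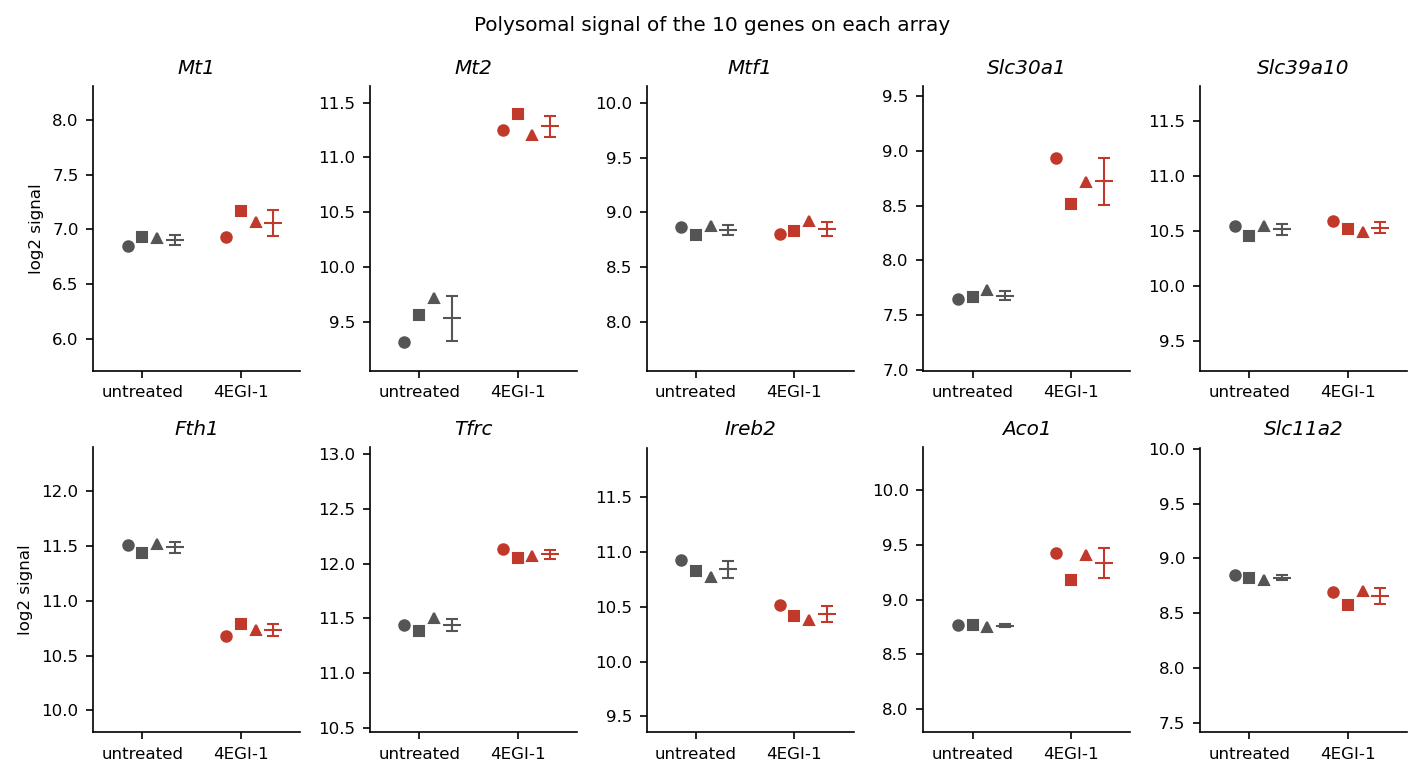
Log2 signal of each of the 10 genes on the 3 untreated arrays (grey) and the 3 arrays with 4EGI-1 (red), with circles, squares and triangles for replicates 1, 2 and 3, and with the mean and SD of each group at its right. Every panel spans the same range, so the steps of Mt2 and Slc30a1 can be set beside the flat values of Mtf1 and Slc39a10.

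**Figure D2:**
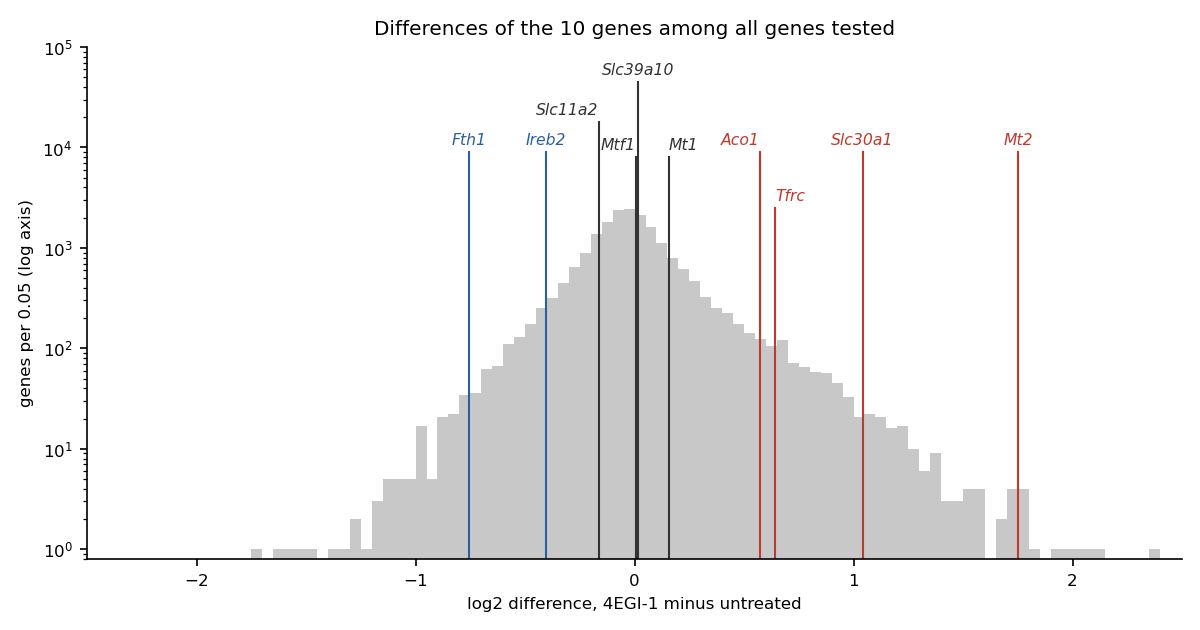
Histogram of the log2 difference (4EGI-1 minus untreated) of 19937 genes, on a log axis of genes per bin, with lines at the 10 genes, red for those that rose, blue for those that fell and black for those that were not called. Mt2 lies far to the right, with 0.0502% of genes beyond it, and Fth1 and Slc30a1 lie in the thin tails.

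Mt2, a metallothionein gene, had log2 signals of 9.31, 9.56 and 9.72 in untreated replicates 1 to 3 and of 11.25, 11.39 and 11.21 with 4EGI-1. All 3 treated samples lay far above the untreated ones, whose own spread was the wider. The log2 difference was 1.75 ± 0.11 (SE), a 3.37-fold rise with a 95% interval of 1.51 to 2.00 on the log2 scale, and 0.0502% of all genes rose by more. Mt1, which encodes the sister protein, gave 6.85, 6.93 and 6.92 in untreated samples and 6.93, 7.17 and 7.07 with 4EGI-1. Treated replicate 1 of Mt1 lay within the untreated values, and the groups overlapped. The log2 difference of Mt1 was 0.16 ± 0.08 (SE), and its signal was close to the array medians and within the range of the erythroid markers, so it is not shown to be above background. On each array the log2 ratio of Mt2 to Mt1 was 2.46, 2.63 and 2.80 in untreated samples and 4.32, 4.22 and 4.14 with 4EGI-1. The groups lay apart in this ratio, but with Mt1 at such a level its size is not a measure of how Mt1 and Mt2 differ in response.

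Mt1 and Mt2 are neighbours on chromosome 8, with 0 measured genes between them, next to the other metallothionein genes. Mt3, a metallothionein known from the brain, had a log2 signal of 7.71 ± 0.03 in untreated samples and 7.45 ± 0.15 with 4EGI-1 (SD, n = 3 each), and its log2 difference of -0.26 ± 0.08 (SE) did not pass (adjusted p = 0.0605 in limma), though it was called lower in 5 of 16 alternative settings (adjusted p from 0.0145 to 0.166), among them the omission of 4EGI-1 replicate 2. Mt4, known from squamous epithelium, differed by 0.00 ± 0.09. Bbs2, the next measured gene beyond Mt3 and Mt4, differed by 0.16 and did not pass. On the other side of the pair Nup93, a nuclear pore gene, rose by 0.31 ± 0.07 (adjusted p = 0.0149 in limma). Mir138-2 and Slc12a3, the next measured genes on that side, differed by -0.08 and 0.08 and did not pass. Of these 6 neighbours 1 was called, which is near the 22.9% of all genes called.

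The 250 bases before the RefSeq start of Mt1, Mt2 and Slc30a1 are shown because Mt2 and Slc30a1 rose and metal response elements are known to control these genes. Whether these stretches hold the known control regions was not tested. In Mt1 such cores also lie after the RefSeq start, at 3 and 21, and are not printed. They come from RefSeq on GRCm38.p6: Mt1 from chr8:94178839-94179088, Mt2 from chr8:94172368-94172617 and Slc30a1 from chr1:191906531-191906780, all on the plus strand, written 5′ to 3′. Capitals mark matches, on either strand, to the core of the metal response element (MRE), searched as TGCGCNC and TGCACNC, and to the core of the antioxidant response element (ARE), searched as TGACNNNGC, the binding site known for NRF2.
Mt1: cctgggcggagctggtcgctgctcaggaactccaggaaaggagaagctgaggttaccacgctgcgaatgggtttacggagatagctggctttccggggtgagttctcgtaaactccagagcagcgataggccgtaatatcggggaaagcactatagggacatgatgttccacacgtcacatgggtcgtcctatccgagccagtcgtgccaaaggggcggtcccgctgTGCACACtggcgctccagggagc
Mt2: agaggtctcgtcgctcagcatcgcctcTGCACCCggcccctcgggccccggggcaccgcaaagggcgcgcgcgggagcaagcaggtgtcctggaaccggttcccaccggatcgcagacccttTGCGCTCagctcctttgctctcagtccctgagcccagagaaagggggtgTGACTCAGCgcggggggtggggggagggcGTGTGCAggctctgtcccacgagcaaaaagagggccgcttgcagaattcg
Slc30a1: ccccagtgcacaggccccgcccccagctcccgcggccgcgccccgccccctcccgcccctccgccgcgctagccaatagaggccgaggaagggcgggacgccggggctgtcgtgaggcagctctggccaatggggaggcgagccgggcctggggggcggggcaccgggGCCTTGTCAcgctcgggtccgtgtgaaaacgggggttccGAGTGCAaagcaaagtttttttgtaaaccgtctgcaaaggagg

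Counted over the whole window of 300 bases, from 250 before the start to 50 after it, Mt2 held 4 MRE cores, Mt1 held 3 and Slc30a1 held 2. Of 32851 RefSeq windows of this length, 25.7% held at least 1 MRE core, 7.11% at least 2, 1.97% at least 3 and 0.517% at least 4. The MRE was already known from metallothionein genes, so these shares are a description and carry no test. In Mt2 the upstream cores began at -223, -128 and -50 from the start; in Mt1 and Slc30a1 the only upstream core began at -23 and -43. Mt2 also held an ARE core at -79 to -71, which overlaps a match to the AP-1 site TGACTCA, and Slc30a1 held one at -82 to -74 on the other strand. The window of Mt1 held 0 ARE cores, and 12.4% of all windows held 1 or more. Only 1 of the 3 MRE cores of Mt1 lay before the RefSeq start, and the others began at 3 and 21 after it. Bases beyond the window were not searched, and whether these cells use that start was not tested. The counts of Mt1 therefore do not show that it lacks further MRE or ARE cores. Of the other members, Tfrc had 2 MRE cores that overlap each other in 1 of its 2 windows and Aco1 had 1, while the windows of Mtf1, Slc39a10, Fth1 and Ireb2 held 0 of either core, and 9 of the 10 genes had a window. A match is only a run of letters, and these windows say nothing of binding in these cells.

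Mtf1, the zinc sensor's own gene, had log2 signals of 8.86, 8.79 and 8.87 in untreated samples and 8.80, 8.83 and 8.92 with 4EGI-1. The groups overlapped, and the log2 difference of 0.01 ± 0.06 (SE) had a 95% interval of -0.14 to 0.15. Slc30a1, whose product ZnT1 exports zinc, gave 7.64, 7.66 and 7.73 in untreated samples and 8.94, 8.51 and 8.71 with 4EGI-1. The groups were well apart, with the treated samples the more scattered. Slc30a1 rose by 1.04 ± 0.10 on the log2 scale (SE), or 2.06-fold, with a 95% interval of 0.80 to 1.28, and 0.682% of all genes rose by more. Slc39a10, which encodes the plasma membrane importer ZIP10 and which MTF1 is known to repress, gave 10.54, 10.46 and 10.54 in untreated samples and 10.59, 10.52 and 10.49 with 4EGI-1. Its values overlapped, with a log2 difference of 0.02 ± 0.06 and a 95% interval of -0.13 to 0.16. The within-array log2 ratio of Slc30a1 to Slc39a10 was -2.90, -2.80 and -2.81 in untreated samples and -1.65, -2.01 and -1.78 with 4EGI-1, a ratio 2.03 times as high.

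The other metallothionein and zinc transporter genes numbered 24, all measured; 2 of them rose, 3 fell and 19 were not called, which is 20.8% called against 22.9% of all genes, with a median log2 difference of 0.00. Slc30a5, which encodes a zinc transporter of the early secretory pathway, had log2 signals of 9.55, 9.59 and 9.54 in untreated samples and 8.86, 8.85 and 8.85 with 4EGI-1, and fell by 0.71 ± 0.06 (SE; adjusted p = 0.000120 in limma). Slc30a6, which encodes the partner with which the product of Slc30a5 is known to form a heteromer, gave 8.87, 8.71 and 8.79 in untreated samples and 9.29, 9.14 and 9.13 with 4EGI-1. It rose by 0.40 ± 0.07 (adjusted p = 0.00561), so these partner genes moved in opposite directions, each with no overlap between the groups. Of the importers, Slc39a14 fell by 0.31 ± 0.08 (adjusted p = 0.0248), Slc39a1 fell by 0.37 ± 0.10 (adjusted p = 0.0303) and Slc39a12 rose by 0.22 ± 0.07 (adjusted p = 0.0468) from a low signal of 5.17. The second probe set of Slc39a1 differed by -0.08 and was not called. The count of 5 became 2 without untreated replicate 1 and 3 without untreated replicate 2, 4EGI-1 replicate 2 or 4EGI-1 replicate 3. The call of Slc39a1 ended when any 1 untreated replicate or 4EGI-1 replicate 2 was omitted (adjusted p up to 0.102). That of Slc39a14 ended on omission of untreated replicate 1 or 2 or of 4EGI-1 replicate 2 or 3 (up to 0.0839), and that of Slc39a12 on omission of any array but untreated replicate 2 (up to 0.143).

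Of the other genes known as MTF1 targets, 6 were measured; 0 rose, 2 fell and 4 were not called (33.3% called against 22.9% of all genes; median log2 difference -0.13). Csrp1, a LIM domain protein gene, fell by 0.25 ± 0.06 (SE; adjusted p = 0.0240 in limma), and Gclc, which encodes the catalytic subunit of glutathione synthesis, by 0.21 ± 0.06 (adjusted p = 0.0286). Both calls ended, leaving 0 of 6, when any array except 4EGI-1 replicate 1 was omitted (adjusted p up to 0.0854). Selenow, Ndrg1, Pgf and Slc40a1 differed by 0.08, -0.01, -0.20 and -0.06.

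Fth1 encodes the ferritin heavy chain, the subunit that oxidises iron for storage, and its mRNA carries an iron-responsive element near its start. Its log2 signals were 11.51, 11.43 and 11.52 in untreated samples and 10.68, 10.79 and 10.73 with 4EGI-1. All treated samples lay below the untreated ones by many times the spread within a group. Fth1 fell to 0.592 times its untreated level, a log2 difference of -0.76 ± 0.06 (SE) with a 95% interval of -0.90 to -0.61, and 0.617% of all genes fell by more. Tfrc encodes the transferrin receptor, whose mRNA carries several such elements near its end. It gave 11.44, 11.39 and 11.50 in untreated samples and 12.13, 12.05 and 12.07 with 4EGI-1. Here every treated sample lay above every untreated one, and Tfrc rose by 0.64 ± 0.06 (SE), or 1.56-fold, with a 95% interval of 0.50 to 0.79. Slc11a2 encodes DMT1, which carries iron out of endosomes, and 1 form of its mRNA is known to have such an element near its end. Its values were 8.85, 8.82 and 8.80 in untreated samples and 8.69, 8.58 and 8.70 with 4EGI-1, lower in all treated samples by a small step. The log2 difference of -0.16 ± 0.06 (SE; 95% interval -0.31 to -0.02) was not called across all genes, and was called in 1 of 16 alternative settings, the one limited to the brighter genes by the median (adjusted p = 0.0362).

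On each array the log2 ratio of Tfrc to Fth1 was -0.07, -0.04 and -0.02 in untreated samples and 1.46, 1.26 and 1.34 with 4EGI-1. This ratio, in which a shift of a whole array cancels, was 2.64 times as high with 4EGI-1, and its SD within a group was at most 0.10. The ratio of Tfrc to Slc11a2 was 1.75 times as high.

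**Figure D3:**
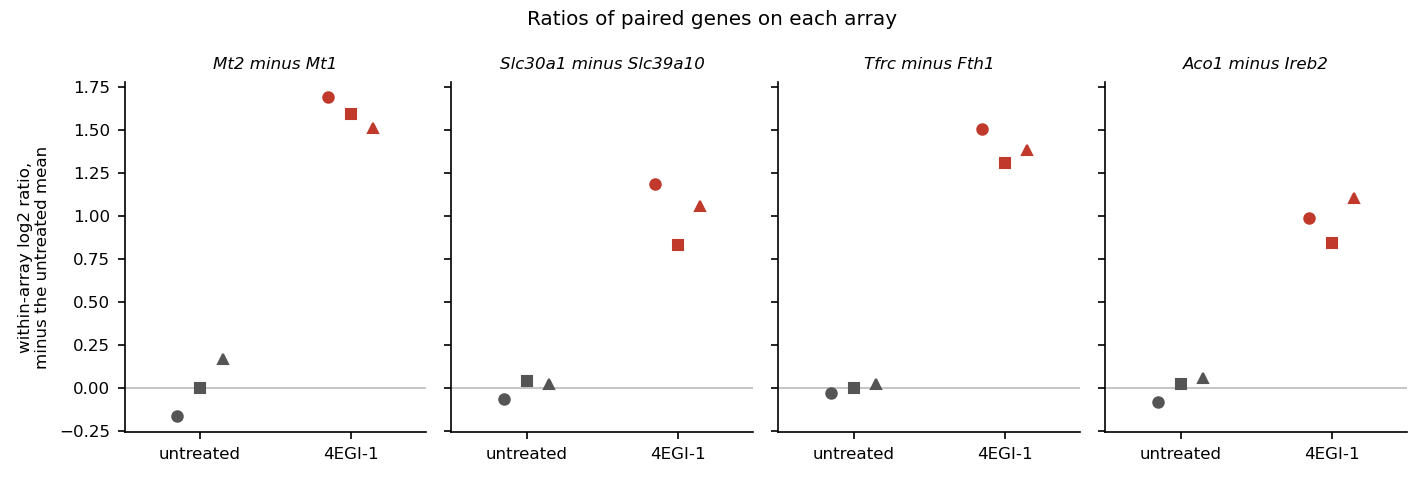
Within-array log2 ratio of 4 gene pairs on the 3 untreated arrays (grey) and the 3 arrays with 4EGI-1 (red), each after subtraction of the untreated mean, with circles, squares and triangles for replicates 1, 2 and 3. In each pair the groups lie apart, with a mean shift of 1.02 for Slc30a1 minus Slc39a10, 1.40 for Tfrc minus Fth1 and 0.98 for Aco1 minus Ireb2; Mt2 minus Mt1 is drawn as measured, with Mt1 not shown to be above background.

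Of other mRNAs with a known or reported iron-responsive element, 7 were measured; 0 were called in limma at an adjusted p under 0.05 and 1 had an unadjusted p under 0.05, against 22.9% of all genes called, with log2 differences from -0.26 to 0.13 and a median of -0.06. The brightest of them were Cdc14a, a phosphatase gene, which differed by 0.01 ± 0.06 (SE; adjusted p = 0.952), and Epas1, which encodes HIF-2α, with -0.13 ± 0.06 (adjusted p = 0.184). Slc40a1, which encodes the iron exporter ferroportin, had a low signal of 5.76 ± 0.05 in untreated samples and 5.70 ± 0.05 with 4EGI-1 (SD, n = 3 each). Ftl1, the ferritin light chain gene, differed by -0.26 ± 0.10 (SE; adjusted p = 0.0980) on the probe set that carries its symbol alone, at a low signal of 6.18. That probe set was called when untreated replicate 3 was left out (adjusted p = 0.0177), which makes the count 1. Other probe sets of Ftl1 also carry microRNA symbols and are not used here.

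Both iron regulatory protein genes changed, in opposite directions. Aco1 encodes IRP1, which is a cytosolic aconitase when it holds an iron-sulphur cluster and binds iron-responsive elements when it does not. Its log2 signals were 8.77, 8.77 and 8.75 in untreated samples and 9.43, 9.18 and 9.40 with 4EGI-1. The untreated samples were nearly alike and all treated samples lay above them. Aco1 rose by 0.57 ± 0.08 (SE), or 1.49-fold, with a 95% interval of 0.39 to 0.75. Ireb2 encodes IRP2, which is removed by the proteasome when iron is plentiful, and it gave 10.93, 10.83 and 10.77 in untreated samples and 10.52, 10.41 and 10.38 with 4EGI-1. It fell by 0.40 ± 0.07 (SE), to 0.756 times its untreated level, with a 95% interval of -0.57 to -0.24. The log2 ratio of Aco1 to Ireb2 was -2.16, -2.05 and -2.02 in untreated samples and -1.09, -1.23 and -0.98 with 4EGI-1, so the ratio was 1.97 times as high. Fbxl5, whose product marks IRP2 for removal when iron is present, rose by 0.26 ± 0.06 (adjusted p = 0.0203 in limma), a call that ended without untreated replicate 1, untreated replicate 3 or 4EGI-1 replicate 1 (adjusted p up to 0.0681).

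Among the other genes of iron uptake, storage and export, of which 22 were measured, 5 rose, 5 fell and 12 were not called, which is 45.5% called against 22.9% of all genes, with a median log2 difference of -0.09. Cybrd1, which encodes a ferric reductase, had log2 signals of 6.37, 6.61 and 6.48 in untreated samples and 7.46, 7.25 and 7.61 with 4EGI-1. It rose by 0.95 ± 0.10 (SE, adjusted p = 0.000441 in limma), with no overlap. The untreated mean of Cybrd1, 6.49, was close to the array medians, so its untreated signal is not shown to be above background. Ncoa4, which encodes the receptor that delivers ferritin to lysosomes, gave 10.06, 10.49 and 10.15 in untreated samples and 10.73, 10.95 and 11.03 with 4EGI-1. It rose by 0.67 ± 0.12 (adjusted p = 0.00547), and its second probe set by 0.52 ± 0.06. Hmox1, the haem oxygenase gene that frees iron from haem, rose by 0.45 ± 0.10 (adjusted p = 0.0130). The remaining increases were Fbxl5 and the mitochondrial iron importer gene Slc25a37, which rose by 0.29 ± 0.07 (adjusted p = 0.0138) and, with Fbxl5, was named after its values were seen.

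The decreases in that list included the genes of the iron chaperones that load ferritin. Pcbp2 had log2 signals of 12.48, 12.42 and 12.42 in untreated samples and 11.98, 12.10 and 11.97 with 4EGI-1, and fell by 0.42 ± 0.06 (SE; adjusted p = 0.00216 in limma). Pcbp1 gave 10.41, 10.24 and 10.26 in untreated samples and 9.96, 9.80 and 9.97 with 4EGI-1, and fell by 0.39 ± 0.08 (adjusted p = 0.00792). These chaperone genes are also known for binding RNA, and both showed no overlap between the groups. Steap3, the endosomal ferrireductase gene, fell by 0.42 ± 0.10 (adjusted p = 0.0177; 0.0583 without 4EGI-1 replicate 2). The ferroxidase gene Cp and the transporter gene Slc39a14 were the other 2 called lower; the call of Cp, whose untreated signal was 4.72, ended without any 1 of the 3 untreated replicates, 4EGI-1 replicate 1 or 4EGI-1 replicate 3 (adjusted p up to 0.0738), and that of Slc39a14 without untreated replicate 1 or 2 or 4EGI-1 replicate 2 or 3 (up to 0.0839).

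**Figure D4:**
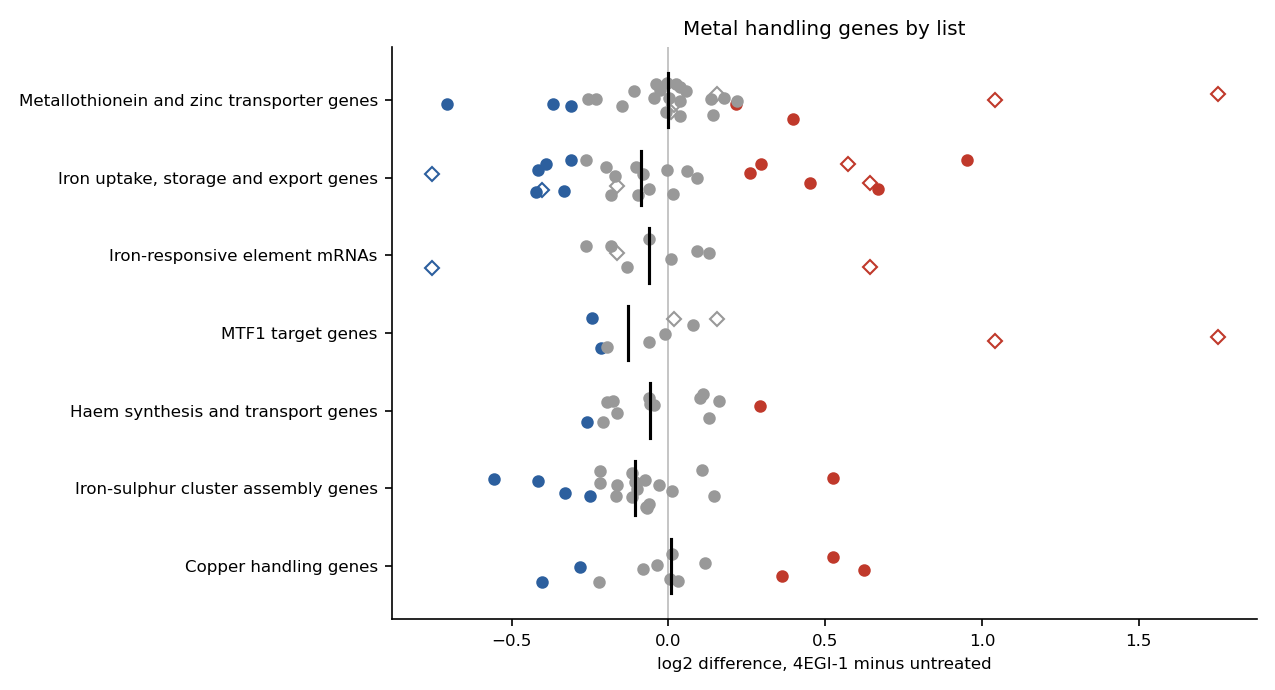
Log2 difference (4EGI-1 minus untreated) of every measured gene of 7 metal handling lists, with filled circles for genes other than the 10 described and open diamonds for those 10, red for genes that rose, blue for genes that fell and grey for genes not called. Black bars are medians over the filled circles and lie between -0.13 and 0.01, while Mt2 and Slc30a1 stand at the far right of their lists.

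Iron is used in haem and in iron-sulphur clusters. For haem synthesis and transport 13 genes were measured; 1 rose, 1 fell and 11 were not called (15.4% called against 22.9% of all genes; median log2 difference -0.06). Alas1, the first enzyme of haem synthesis in most cells, rose by 0.29 ± 0.07 (SE; adjusted p = 0.0154 in limma) and the haem exporter gene Flvcr1 fell by 0.26 ± 0.06 (adjusted p = 0.0212), with -0.10 on its second probe set. The call of Alas1 ended without untreated replicate 2, 4EGI-1 replicate 1 or 4EGI-1 replicate 3, and that of Flvcr1 without untreated replicate 1 or 3 or 4EGI-1 replicate 2 or 3 (adjusted p up to 0.0731), so each of the 6 omissions left 0 or 1 call. For iron-sulphur cluster assembly 21 were measured; 1 rose, 4 fell and 16 were not called (23.8% called; median -0.11). Mms19, a targeting factor of the cytosolic pathway, rose by 0.52 ± 0.09 (adjusted p = 0.00320) and Ciao2a, which is known to serve IRP1, fell by 0.56 ± 0.08 (adjusted p = 0.00169). Fdx1, a mitochondrial ferredoxin gene, fell by 0.42 ± 0.09 (adjusted p = 0.0144; 0.0501 without 4EGI-1 replicate 2) and Nubp1, a scaffold gene, by 0.33 ± 0.08 (adjusted p = 0.0175; up to 0.0574 without untreated replicate 2 or 4EGI-1 replicate 2 or 3). The fourth decrease was Glrx5, whose call ended without any 1 of the 6 arrays (adjusted p up to 0.15), and the count of 5 became 2 on omission of 4EGI-1 replicate 2 and 3 on omission of 4EGI-1 replicate 3 or untreated replicate 2.

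Copper handling genes, listed for comparison with zinc and iron, gave 3 higher, 2 lower and 7 not past the test of 12 measured (41.7% called against 22.9% of all genes; median log2 difference 0.01). Slc31a2, which encodes a relative of the copper importer, had log2 signals of 8.00, 8.08 and 7.96 in untreated samples and 8.61, 8.68 and 8.62 with 4EGI-1. It rose by 0.62 ± 0.06 (SE; adjusted p = 0.000296 in limma). Sco1, a copper chaperone gene of cytochrome c oxidase, rose by 0.52 ± 0.08 (adjusted p = 0.00269), and the copper pump gene Atp7a by 0.36 ± 0.06 (adjusted p = 0.00388). The small chaperone genes Atox1 and Cox17 fell by 0.40 ± 0.10 (adjusted p = 0.0237) and 0.28 ± 0.08 (adjusted p = 0.0412). Both of these calls ended without untreated replicate 2 or 3 or 4EGI-1 replicate 1 or 3, which left a count of 3 (adjusted p up to 0.128).

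Over the 7 lists together, 99 genes besides the members were measured, each counted once. Among them 12 rose, 16 fell and 71 were not called, which is 28.3% called against 22.9% of all genes.

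The genes whose profile over the 6 arrays was most like that of Mt2, by the root mean square distance between centred log2 values, were Zfp389, Bcl2l15, Amy1, Zc3h6 and Mybbp1a, at distances of 0.112 to 0.146. Their differences were 1.59 to 1.79 on the log2 scale, and Zfp389 and Bcl2l15 rose from low untreated signals of 5.37 and 5.01. For Fth1 the nearest were Brms1l, Mrpl11, Stk39, Cdkn3 and Nop10, at distances of 0.0392 to 0.0487 and differences of -0.79 to -0.72. These profiles share the 6 arrays and the step between the groups, so the distances are a description and carry no test.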

How the data were processed

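RNA from pooled polysome fractions of 6 samples was measured on 1 array each. The authors deposited RMA values on the log2 scale for each probe set, per the submitters' processing notes, which name no version or settings. Probe sets (34760) were named by the platform annotation, 21640 with 1 symbol, updated through a RefSeq table of GRCm38.p6, and the brightest of each symbol was kept (19937 genes). Differences were fitted across all genes with limma 3.58.1 (lmFit, eBayes; R 4.3.3), two-sided, with Benjamini-Hochberg adjustment and a threshold of 0.05; the fit was tested on simulated data. No filter or further normalization was used. The design text calls the samples biological replicates. The 10 genes and the 7 lists were chosen with earlier results of these data known. By rule, the list genes named were up to 3 called in each direction by smallest adjusted p, or the 2 brightest where fewer than 2 were called. Named outside this rule were Cp, Fbxl5, Slc25a37, Glrx5, Ftl1, Slc40a1, Selenow, Ndrg1 and Pgf. Neighbours were the 3 nearest measured genes on each side of Mt1 and Mt2, and like genes the 5 nearest profiles. Alternative settings were a block for replicate number, filters at the 25th percentile and the median of the table, the mean of probe sets, every probe set tested, quantile normalization, median centring, array weights, a robust prior with trend, omission of each array and a threshold of 0.01.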

Additional observations from a re-analysis of the deposited data

How the results depend on the processing

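Each of the 6 calls among the 10 genes, and the direction of Mt1 and Slc11a2, was the same under 16 alternatives; Slc11a2 was called among genes at or above the median (adjusted p = 0.0362), where fewer genes are tested. Mtf1 and Slc39a10 stayed uncalled, with changed signs close to 0: Mtf1 was at -0.0115 after quantile normalization and between -0.0279 and 0.0315 when 1 array was left out, Slc39a10 between -0.0115 and 0.0391. An adjusted p under 0.01 left 2736 of all genes, 2 zinc genes, 4 of iron uptake, storage and export, 0 MTF1 targets, 0 of haem, 2 of iron-sulphur assembly and 3 of copper. Among genes at or above the median, 8 zinc and 5 haem genes were called; the mean of probe sets left 1 haem gene, and the trended robust prior gave 8 of iron-sulphur assembly. With 1 array left out the counts were 2 to 4 for zinc, 0 to 1 for iron-responsive element mRNAs, 0 to 2 for MTF1 targets, 0 to 1 for haem, 2 to 5 for iron-sulphur assembly and 3 to 6 for copper. For iron uptake, storage and export they were 7 to 9, against 10 with all arrays. The cause of these shifts was not tested. With the replicate block 0 MTF1 targets were called. Same-numbered samples deviated together with r of 0.0609, 0.107 and -0.0214, and different-numbered ones with r of -0.109 to 0.0553. With 3 arrays a group these values cannot settle whether the samples were paired. A count of calls among second probe sets of the 10 genes was planned and not run, as each has 1; for the same reason the settings on probe sets leave their differences as they are. With 3 arrays a group and no detection calls, the interval of a dim gene such as Mt1 (-0.02 to 0.33) holds both no step and a small rise.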
